A study of Mus musculus with 120 samples.

Results

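Receptor subunit genes of inhibitory transmission, 6 in number, are described here across projection neurons of the mouse thalamus. They are the GABA-A gamma subunit genes Gabrg1 and Gabrg3, the GABA-B receptor genes Gabbr1 and Gabbr2, the glycine receptor alpha subunit gene Glra3 and the glycine receptor beta subunit gene Glrb. They were chosen by name and make up 6 of the 16538 genes of the count table, and all 6 are among the 16527 genes that passed a filter on low counts. In the mm10 build (GENCODE M21) Gabrg1 (ENSMUSG00000001260.10) lies on chromosome 5 at 70751047 to 70842617 on the minus strand, and Gabrg3 (ENSMUSG00000055026.13) on chromosome 7 at 56716465 to 57387188 on the minus strand. Gabbr1 (ENSMUSG00000024462.17) lies on chromosome 17 at 37045966 to 37075067 on the plus strand, and Gabbr2 (ENSMUSG00000039809.10) on chromosome 4 at 46662305 to 46991873 on the minus strand. Glra3 (ENSMUSG00000038257.9) lies on chromosome 8 at 55940460 to 56130070 on the plus strand, and Glrb (ENSMUSG00000028020.16) on chromosome 3 at 80843599 to 80913660 on the minus strand. Counts cover the exons of each gene, and no exon of another annotated gene overlaps an exon of any of the 6.

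GABA-A and glycine receptors are chloride channels built of several subunits around a pore, and GABA-B receptors are G-protein coupled. In GABA-A receptors a gamma subunit sets benzodiazepine sensitivity and helps hold the receptor at synapses. GABA-B receptors need both of their subunits: the product of Gabbr1 binds GABA, and the product of Gabbr2 couples to the G protein and carries the complex to the cell surface. Glycine receptor alpha subunits bind glycine and form the channel, while the beta subunit coded by Glrb ties the receptor to the scaffold protein gephyrin. Thalamic projection neurons are inhibited mainly by the reticular nucleus and, depending on the nucleus, by the zona incerta, basal ganglia, pretectum and brainstem.

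The study profiled neurons of 22 thalamic nuclei that were marked by a tracer carried back from their target region, dissected and picked by hand into small pools, and sequenced as bulk RNA. It gave 120 libraries in 24 groups of 1 to 9. The striatum was the target for the nuclei PF (parafascicular), CL (central lateral), PCN (paracentral), IMD (intermediodorsal) and SPA (subparafascicular area), with 4 libraries each, and PVT (paraventricular, n = 3), all marked with a retrograde AAV expressing GFP or tdTomato. CM (central medial), also marked from the striatum, had 3 DiI and 4 AAV libraries. Neurons marked from the cortex with DiI, a lipophilic dye, came from LP (lateral posterior, n = 9) and LGd (dorsal lateral geniculate, n = 5), both from primary visual cortex, and from PO (posterior, n = 7) and VB (ventrobasal, n = 4), both from barrel cortex. Primary motor cortex was the target for VA (ventral anterior, n = 8), VM (ventromedial, n = 6) and VL (ventrolateral, n = 6), and retrosplenial cortex for AD (anterodorsal, n = 4), LD (laterodorsal, n = 5) and AV (anteroventral, n = 8). Cingulate cortex was the target for RE (reuniens, n = 8), IAD (interanterodorsal, n = 3) and AM (anteromedial, n = 4, with 1 further library from an AAV), orbital cortex for MD (mediodorsal, n = 6) and insular cortex for VPMpc (parvicellular ventral posteromedial, n = 6). Wherever 22 nuclei are compared, CM stands for its AAV and AM for its DiI libraries.

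All animals were recorded as wildtype except that of 1 VA library (replicate 6), recorded as 33.7-Gad2. Recorded ages ran from 55 to 447 in a column without a unit, and 3 libraries had none. By recorded sex 72 libraries were male, 47 female and 1 mixed. The libraries of AD, AV, LD, LGd, LP, MD, PO, VB and CM (DiI) were male, those of AM, CL, IMD, PF, PVT and SPA female, and the other groups held both. The libraries came from 85 animals and 14 amplification dates, 13 of them pooled cells of more than 1 animal, and each was made from 14 to 200 cells (median 60.5). Total counts per library ran from 8159497 to 26444831. Animals gave libraries to several nuclei but none gave more than 1 to a group, so replicates within a group are separate animals or pools.

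The picked cells carried the markers of thalamic projection neurons. Slc17a6, a vesicular glutamate transporter of these neurons, was at 518 to 2701 CPM (counts scaled to library size) over the 120 libraries, and Tcf7l2, a transcription factor of the thalamus, at 813 to 4555 CPM. Of 9 markers of inhibitory neurons only Sst and Npy are in the table, with a median of 0 for their sum and at most 28.6 CPM, and 1 of 8 astrocyte markers is in it (Slc4a4, 0 to 435 CPM). The 8 oligodendrocyte markers in the table, of 10 listed, summed to 0.257 to 3912 CPM (median 30.1), the 2 of 8 microglial markers to 0 to 85.0 CPM, and the 1 of 5 habenular markers, Gpr151, was at 0 to 60.2 CPM. The other listed markers were not analysed here. In pooled cells, fewer cells with a transcript and less RNA per cell cannot be told apart. PCR products were counted without molecular identifiers, so intervals and floors given below cover counting error only.

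The sequences before the start sites differ in their content of CG pairs, which is high in the promoters of broadly expressed genes. The 250 bases upstream of the RefSeq start are printed for Gabrg1 and Glra3, the genes that ranked alike over the nuclei, and for Glrb, which ran the other way, each read 5′ to 3′ on the gene's strand of GRCm38.p6, with every CG in capitals (CG reads the same on both strands). They lie at chr5:70842618-70842867 on the minus strand for Gabrg1, chr8:55940168-55940417 on the plus strand for Glra3 and chr3:80913661-80913910 on the minus strand for Glrb.
Gabrg1: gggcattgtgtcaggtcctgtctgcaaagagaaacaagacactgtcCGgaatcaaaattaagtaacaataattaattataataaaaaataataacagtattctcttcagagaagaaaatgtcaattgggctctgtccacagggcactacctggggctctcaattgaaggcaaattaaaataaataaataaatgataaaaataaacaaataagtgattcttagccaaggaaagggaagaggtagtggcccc
Glra3: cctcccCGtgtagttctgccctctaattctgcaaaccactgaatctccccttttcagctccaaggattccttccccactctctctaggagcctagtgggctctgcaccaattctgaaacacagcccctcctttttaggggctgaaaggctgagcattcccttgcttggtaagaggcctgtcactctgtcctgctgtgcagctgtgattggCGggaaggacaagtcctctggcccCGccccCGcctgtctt
Glrb: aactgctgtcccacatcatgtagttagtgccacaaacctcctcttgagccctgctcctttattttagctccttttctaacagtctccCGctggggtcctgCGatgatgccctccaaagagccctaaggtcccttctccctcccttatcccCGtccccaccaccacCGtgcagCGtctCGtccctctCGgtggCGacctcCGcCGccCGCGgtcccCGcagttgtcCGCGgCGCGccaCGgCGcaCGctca
The window of Gabrg1 holds 1 CG, that of Glra3 4 and that of Glrb 20, against a median of 6 over 32841 RefSeq promoter windows of the same length. The windows of Gabrg3, Gabbr1 and Gabbr2 hold 9, 16 and 37. None of the 6 holds the letters TATAAA on either strand, which 12.4% of all windows do. These counts are descriptions of the letters in these windows.

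All 6 genes differed between the 22 nuclei. The test of any difference between nuclei (edgeR's quasi-likelihood F test over all libraries, a call being a Benjamini-Hochberg adjusted p under 0.05) called 6 of the 6, in a fit that called 55.1% of the 16527 genes. On simulated counts this test called too many unchanged genes among those under 1 CPM over all libraries (365 of 2873 genes, against 21 of 13528 genes at or above it). Pooled over all libraries the 6 genes lie above that level, at 17 CPM (Glra3) or more. Of the genes at or above it 48.8% were called in the data. The unchanged genes of the simulation had the same level in all nuclei. Gabrg1 and Glra3 averaged under 1 CPM in 5 and 6 nuclei, a case that the simulation did not cover. The median F of the 6 genes was 12.6, against 1.97 over all genes tested. Gabrg1 had the largest F, 27.0, which ranked 45 among all genes (adjusted p = 2.07e-31), and Gabbr2 followed with 23.8 at rank 72 (adjusted p = 1.23e-29). Glra3 had an F of 13.8 at rank 285 (adjusted p = 5.47e-20) and Gabrg3 one of 11.4 at rank 423 (adjusted p = 1.49e-17). Gabbr1 had an F of 8.86 at rank 706 (adjusted p = 3.76e-14) and Glrb, the lowest, one of 6.0 at rank 1423 (adjusted p = 1.25e-09). With the amplification date as a term, which left 21 nuclei and 116 libraries, all 6 were still called, with the largest edgeR adjusted p at Glrb (0.0128). That fit called 3849 of 16527 genes.

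Gabrg1 ranged widely, with no read in VB and its highest level in RE. It averaged 203 ± 32.5 CPM in RE (SD, n = 8), 114 ± 13.0 CPM in SPA (n = 4) and 99.4 ± 50.6 CPM in VPMpc (n = 6). The 8 RE libraries lay between 140.1 and 235 CPM with a median of 210.0 CPM, and all stood above the 4 SPA libraries at 102, 113, 133 and 109.8 CPM. RE and SPA were the only neighbours in the order of the 22 nuclei whose libraries did not overlap. The next levels were 62.2 ± 46.8 CPM in MD, 47.4 ± 28.2 CPM in LP, 40.4 ± 18.2 CPM in IMD, 39.5 ± 39.1 CPM in PCN and 39.4 ± 4.46 CPM in PF. CM, CL and PVT followed at 32.5 ± 13.8, 32.1 ± 19.5 and 25.9 ± 8.59 CPM, PO at 14.7 ± 10.8 CPM and IAD at 7.66 ± 2.66 CPM. The lower end held AM at 5.70 ± 4.04 CPM, VM at 3.11 ± 2.25 CPM, LD at 2.98 ± 4.50 CPM and AD at 2.31 ± 1.85 CPM. Below 1 CPM were VA (0.803 ± 1.08 CPM), VL (0.191 ± 0.360 CPM), LGd (0.0656 ± 0.106 CPM), AV (0.0211 ± 0.0596 CPM) and VB, where none of 4 libraries had a read, which allows up to 0.0612 CPM over the group (a floor of 3 counts). In all, 21 of the 120 libraries had no Gabrg1 read.

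Gabrg3, the other gamma subunit gene described here, was read in every library and spanned 48.6-fold between nuclei. It was highest in VPMpc at 508 ± 245 CPM (n = 6, 303 to 967 CPM, median 446 CPM), MD at 453 ± 293 CPM (n = 6, 204 to 1004 CPM, median 386 CPM) and RE at 329.7 ± 54.9 CPM (n = 8, 247 to 436 CPM, median 318 CPM). A middle range from 223 ± 35 CPM in IAD to 141 ± 63.0 CPM in SPA also held AM (208 ± 31.5 CPM), PO (189 ± 52.6 CPM), LGd (187 ± 35.4 CPM), LP (186 ± 86.7 CPM) and VB (162 ± 119 CPM). Below these came IMD (119 ± 4.11 CPM), CM (99.7 ± 41.6 CPM), PVT (87.5 ± 14.1 CPM), VM (84.4 ± 44.3 CPM), VA (56.7 ± 20.2 CPM), CL (44.2 ± 22.6 CPM) and PCN (42.7 ± 27.5 CPM). The lowest were LD (31.8 ± 42.4 CPM), PF (29.1 ± 6.82 CPM), AD (22.5 ± 32.3 CPM), VL (11 ± 10.6 CPM) and AV (10.5 ± 19.4 CPM). None of the 21 neighbours in this order had ranges that stood apart. Within AV 1 library was at 57.6 CPM and the other 7 at 0.248 to 9.51 CPM, and within AD 1 was at 70.6 CPM and the other 3 at 0.995, 7.95 and 10.4 CPM.

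The GABA-B genes were the most abundant of the 6 and had the smallest spans between nuclei, though Gabbr2 had the next largest F after Gabrg1. Gabbr1 ran from 1306 ± 276 CPM in LD (n = 5) to 535 ± 69 CPM in SPA (n = 4), a span of 2.44-fold, with a median nucleus mean of 918 CPM. The 5 LD libraries were at 1405, 832, 1556, 1388 and 1348 CPM and the 4 SPA libraries at 557, 456, 509 and 618 CPM, without overlap. VM (1283 ± 185 CPM), VA (1195 ± 234 CPM), VL (1166 ± 103 CPM) and LGd (1142 ± 48.3 CPM) followed LD, and AV (729.5 ± 140.3 CPM), PVT (635 ± 50.3 CPM) and AD (589.8 ± 195 CPM) preceded SPA. No neighbours in the order of Gabbr1 had ranges apart. Gabbr2 spanned 4.19-fold, from 2927 ± 919 CPM in MD (n = 6, 1798 to 4213 CPM, median 3102 CPM) to 698 ± 39.3 CPM in AD (721, 686, 738 and 649 CPM). Its order split into an upper set of 10 nuclei and a lower set of 12. The upper set was MD, VPMpc (2638 ± 801 CPM), LD (2401 ± 535 CPM), PO (2163 ± 429 CPM), VM (1892 ± 405 CPM), LP (1861 ± 354 CPM), LGd (1833 ± 169.9 CPM), VA (1766 ± 409.9 CPM), VB (1759 ± 451 CPM) and VL (1759 ± 232 CPM). The lowest VL library, at 1395 CPM, stood above the highest library of the next nucleus IAD, at 1229 CPM, the one gap between neighbours. All 7 striatum-projecting nuclei were in the lower set, together with IAD (1171 ± 77.0 CPM), AV (1039 ± 207 CPM), AM (950.2 ± 170.2 CPM), RE (878 ± 223 CPM) and AD.

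Among the glycine receptor genes Glra3 was scarce and uneven. It was highest in RE at 62.6 ± 38.8 CPM (n = 8, 26.5 to 144 CPM, median 53.0 CPM) and LP at 59.1 ± 19.4 CPM (n = 9, 26.4 to 87.6 CPM, median 57.4 CPM), which overlapped almost fully. SPA (35.7 ± 7.84 CPM), PVT (33.0 ± 16.9 CPM), PO (23.8 ± 10.9 CPM), VPMpc (20.4 ± 10.9 CPM), PF (16.8 ± 7.90 CPM), IMD (13.9 ± 5.83 CPM), CL (12 ± 10.7 CPM), LD (11.2 ± 16.4 CPM) and VM (10.0 ± 14.7 CPM) followed. CM (7.95 ± 3.58 CPM), AV (5.60 ± 5.12 CPM), PCN (4.8 ± 3.44 CPM), MD (4.70 ± 8.62 CPM) and AD (3.63 ± 2.58 CPM) were below 10 CPM. AD and LGd were the only neighbours in this order whose ranges did not overlap, with the lowest AD library at 0.995 CPM against 0.930 CPM in the highest of LGd. LGd (0.275 ± 0.367 CPM), AM (0.124 ± 0.0797 CPM), VL (0.0776 ± 0.163 CPM) and VA (0.0209 ± 0.0292 CPM) were near 0, and no read was seen in the 3 libraries of IAD or the 4 of VB, which allows up to 0.0609 CPM in IAD and 0.0612 CPM in VB. Without a Glra3 read were 19 of the 120 libraries.

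Glrb was read in every library and spanned 4.53-fold in an order of its own. It was highest in AD at 502 ± 46.1 CPM (434, 533, 527 and 514 CPM), followed by VB (429 ± 65.1 CPM), LGd (408 ± 139 CPM), AV (405 ± 51.0 CPM), LD (394 ± 173 CPM) and IAD (331 ± 55.8 CPM). It was lowest in IMD at 111 ± 14.7 CPM (98.3, 113, 101 and 130.5 CPM) and PVT at 126 ± 34.0 CPM (161, 92.8 and 124 CPM). The 4 SPA libraries, next above PVT, were at 175, 188, 252 and 246 CPM, so no library of PVT reached the lowest of SPA. Single libraries of VPMpc (94.8 CPM), VA (102 CPM), MD (106 CPM) and LP (126 CPM) lay as low as those of PVT and IMD. The remaining 13 nuclei lay between the means of SPA (215 ± 39.3 CPM) and IAD.

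**Figure D1:**
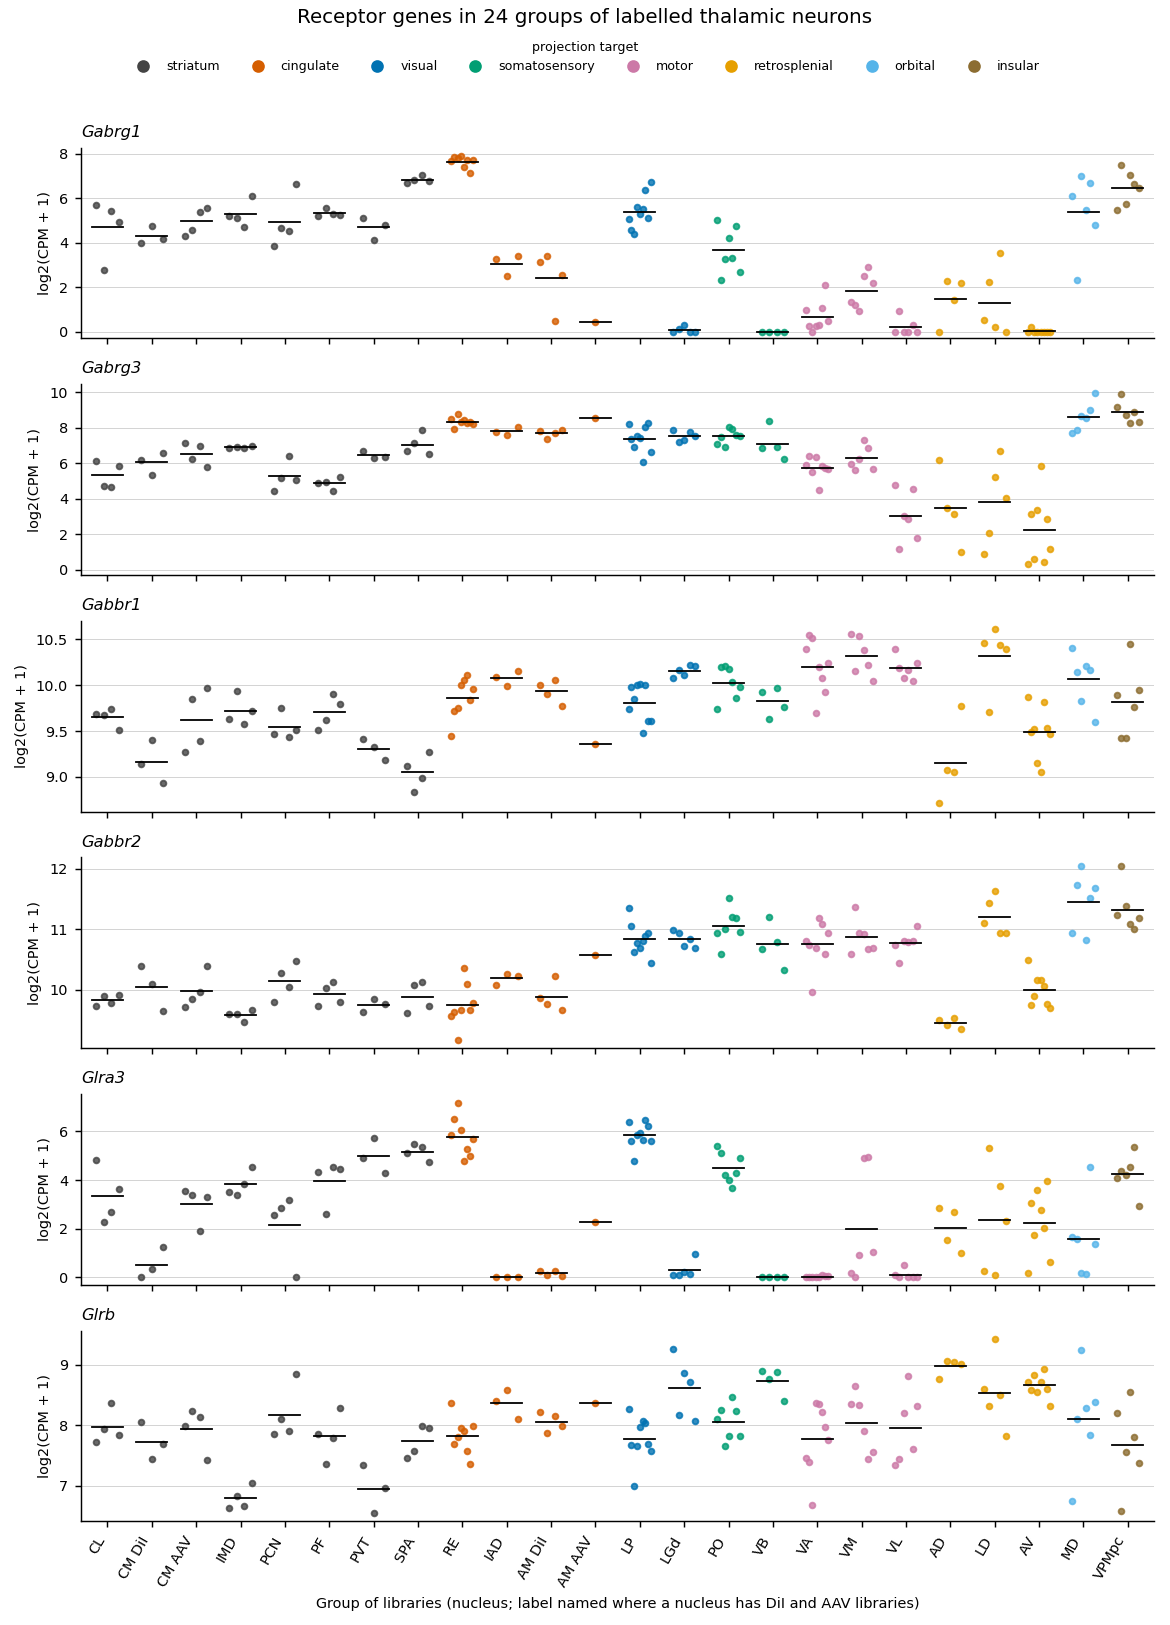
Level of each of the 6 genes in each library, as log2(CPM + 1), by group, coloured by projection target; points are libraries and horizontal bars are group means. Gabrg1 and Glra3 run from 0 in VB to 203 and 62.6 CPM on average in RE, while Gabbr1 stays within 2.44-fold between nuclei.

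Scaled to exon length, Gabbr2 and Gabbr1 were also the most abundant. Over the 22 nuclei the median level was 173 CPM per kb for Gabbr2, 118 CPM per kb for Gabbr1, 56.9 CPM per kb for Glrb, 9.17 CPM per kb for Gabrg3, 2.58 CPM per kb for Gabrg1 and 0.977 CPM per kb for Glra3. The glycine alpha subunit genes Glra2 and Glra1 stood at 17.2 and 16.4 CPM per kb. Exons of Glra1 overlap exons of an annotated gene on the opposite strand (Gm12236) and the kit does not mark strand, so its level is uncertain by the reads of that gene.

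Per kb of exon, Glra3 was not the main one of the 3 glycine alpha subunit genes measured in the mean of any of the 22 nuclei. In CPM, without this scaling, it was the highest of the 3 in LP, PO and LD. Glra3, Glra2 and Glra1 averaged 59.1, 50.7 and 10.8 CPM in LP and 23.8, 19.3 and 7.63 CPM in PO. In LD they averaged 11.2, 7.82 and 10.7 CPM. The share of Glra3 in the length-scaled alpha reads was at most 27.3 ± 16.7% in PO (SD, n = 7) and 25.6 ± 8.36% in LP (n = 9), with a median of 2.93% over nuclei. The highest PO library was at 57.3%. The remaining alpha reads were those of Glra1 and Glra2, since Glra4 was not analysed here.

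**Figure D2:**
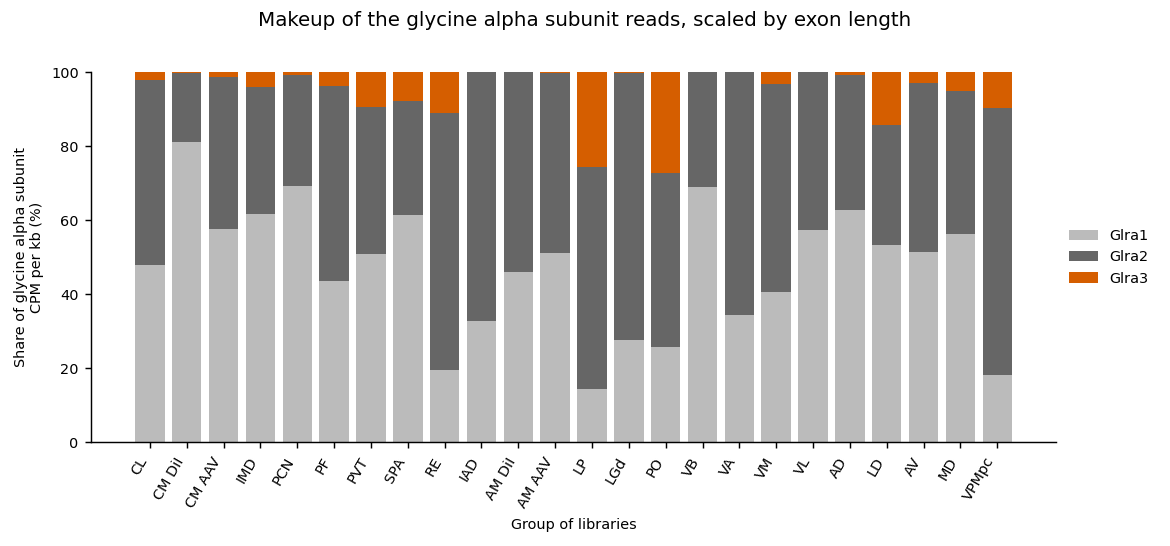
Share (%) of CPM per kb of exon among Glra1, Glra2 and Glra3 in each group of libraries; bars are stacked group means. Glra3 averages 27.3% of the alpha reads in PO and 25.6% in LP.

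The obligate GABA-B partners did not keep a fixed ratio. Per kb of exon Gabbr2 was above Gabbr1 in the mean of all 22 nuclei, by 3.65 ± 1.92-fold in VPMpc (SD, n = 6), 3.36 ± 1.55-fold in MD (n = 6), 2.43 ± 0.575-fold in LP (n = 9) and 2.43 ± 0.517-fold in PO (n = 7). The ratio was near even in IMD (1.06 ± 0.0987, n = 4), RE (1.09 ± 0.196, n = 8) and AM (1.12 ± 0.123, n = 4). In CPM, without scaling to exon length, Gabbr1 was above Gabbr2 in these nuclei. Gabbr1 and Gabbr2 averaged 845 and 768 CPM in IMD, 937 and 878 CPM in RE, and 978 and 950 CPM in AM. The ratio of Glrb to the summed alpha subunits was above 1 in 15 of the 22 nuclei and below it in the others. It ranged from 15 ± 11.2 in LD (n = 5) to 0.605 ± 0.126 in IMD (n = 4), with a median of 1.86.

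Across the 22 nuclei Gabrg1 and Glra3 ranked alike. The correlation of their nucleus means on the log2 scale was 0.75 (Pearson) and 0.72 (Spearman), and that of Gabbr1 with Gabbr2 0.69 (Pearson) and 0.64 (Spearman). Glrb ran the other way, with Pearson correlations of -0.61 with Gabrg1 and -0.49 with Glra3. These values are over 22 nucleus means that share libraries, depth and, in part, animals, and are descriptions. Gabrg1 and Glra3 were both at 1 CPM or more in 15 nuclei and both below it in VB, VA, VL and LGd. Gabrg1 alone reached 1 CPM in IAD and AM, and Glra3 alone in AV. All 7 striatum-projecting nuclei had both, as did 8 of the 15 cortex-projecting nuclei. CM stands here for its AAV libraries, and its 3 DiI libraries were at 0, 0.256 and 1.40 CPM of Glra3. The single AAV library of AM had 3.83 CPM of Glra3 and 0.356 CPM of Gabrg1. Tracer and target cannot be told apart in this split.

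**Figure D3:**
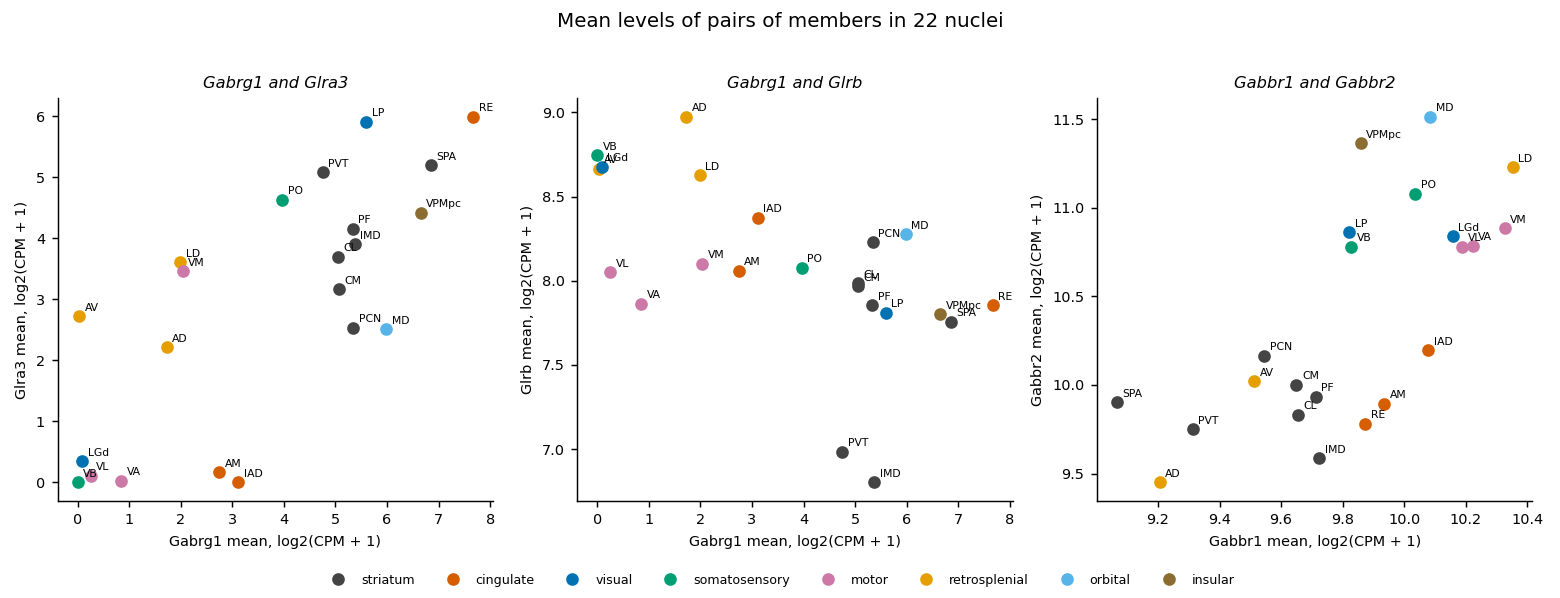
Mean levels of pairs of genes in 22 nuclei, each axis in log2(CPM + 1); each point is a nucleus, coloured by projection target. VB, VA, VL and LGd sit at the low end of both Gabrg1 and Glra3, and RE at the high end of both.

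By the likeness of their nucleus means on the log2 scale (Pearson's r over 22 nuclei, 10567 genes ranked) the genes most like Gabrg1 were Plcxd3 (r = 0.92), Camk2n1 (0.91) and Htr2c (0.91). Htr2c, a serotonin receptor gene, averaged 339 CPM in IMD and 0.0732 CPM in AV. Most like Glra3 were Lypd1 (0.86), the noncoding RNA gene Ftx (0.81) and the synaptic organiser gene Cbln4 (0.80), and among those most like Gabrg3 were Sytl2 (0.81) and Gpr4 (0.80). For Gabbr1 they were Cadm3 (0.88), Ppp2r5d (0.86) and Dcaf6 (0.85), and for Gabbr2 AI593442 (0.93), the calcineurin gene Ppp3ca (0.93) and the phospholipase gene Plcb4 (0.91). Most like Glrb were Gria4 (0.89), an AMPA receptor subunit gene, Abca5 (0.88) and Nfia (0.88). These genes were chosen for their likeness, and no test was made of it.

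Set against the mean of the other 21 nuclei, the 4 genes with reads in every nucleus gave 44 calls in 88 tests (edgeR, adjusted p under 0.05 over all genes of a nucleus). The share of all genes called in the same tests was 31.6% in MD, 24.4% in VPMpc, 20% in AV, 17.4% in LP, 15.7% in RE, 14.7% in LD, 13.6% in PO and 13.1% in AD. It was 13% in IMD, 12.1% in VA, 11.3% in PVT, 11% in VL, 10.1% in VB, 9.47% in SPA and 9.43% in LGd. In the remaining nuclei it was 7.32% in VM, 5.94% in CM, 5.52% in AM, 4.85% in PCN, 4.78% in PF, 4.63% in CL and 3.05% in IAD. Gabrg3 was higher in VPMpc by 2.60 ± 0.33 (log2, SE; adjusted p = 2.20e-10), in MD by 2.43 ± 0.34 (2.66e-09) and in RE by 1.95 ± 0.31 (3.16e-07), and also in PO and LP. It was lower in AV (-3.26 ± 0.51, adjusted p = 1.42e-07), VL (-3.19 ± 0.58, 1.12e-05), AD and LD. Gabbr2 was called in 18 nuclei, higher in 10 and lower in 8. Its largest values were 1.18 ± 0.11 in MD (adjusted p = 2.28e-16), 1.02 ± 0.11 in VPMpc (3.66e-13) and 0.88 ± 0.12 in LD (6.00e-09), and its lowest -0.99 ± 0.16 in AD (9.02e-07) and -0.84 ± 0.16 in IMD (2.98e-05).

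Gabbr1 was called higher than in the other 21 nuclei in LD, VM, VA, VL, LGd and MD, by 0.55 ± 0.11 in LD (log2, SE; edgeR adjusted p = 4.83e-05) down to 0.27 ± 0.10 in MD (0.0335). It was called lower in SPA (-0.80 ± 0.14, edgeR adjusted p = 5.44e-06), AD (-0.65 ± 0.14, 1.60e-04), PVT and AV. Glrb was higher in AD (0.95 ± 0.20, edgeR adjusted p = 1.18e-04), VB, LGd, AV and LD, and lower in IMD (-1.33 ± 0.25, 2.17e-05) and PVT (-1.14 ± 0.28, 0.00222). In AD, GABA-B and glycine beta genes thus moved in opposite directions: Gabbr1 averaged 589.8 CPM in AD and 947 CPM over the other 21 nuclei, Gabbr2 698 and 1509 CPM, and Glrb 502 and 273 CPM.

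**Figure D4:**
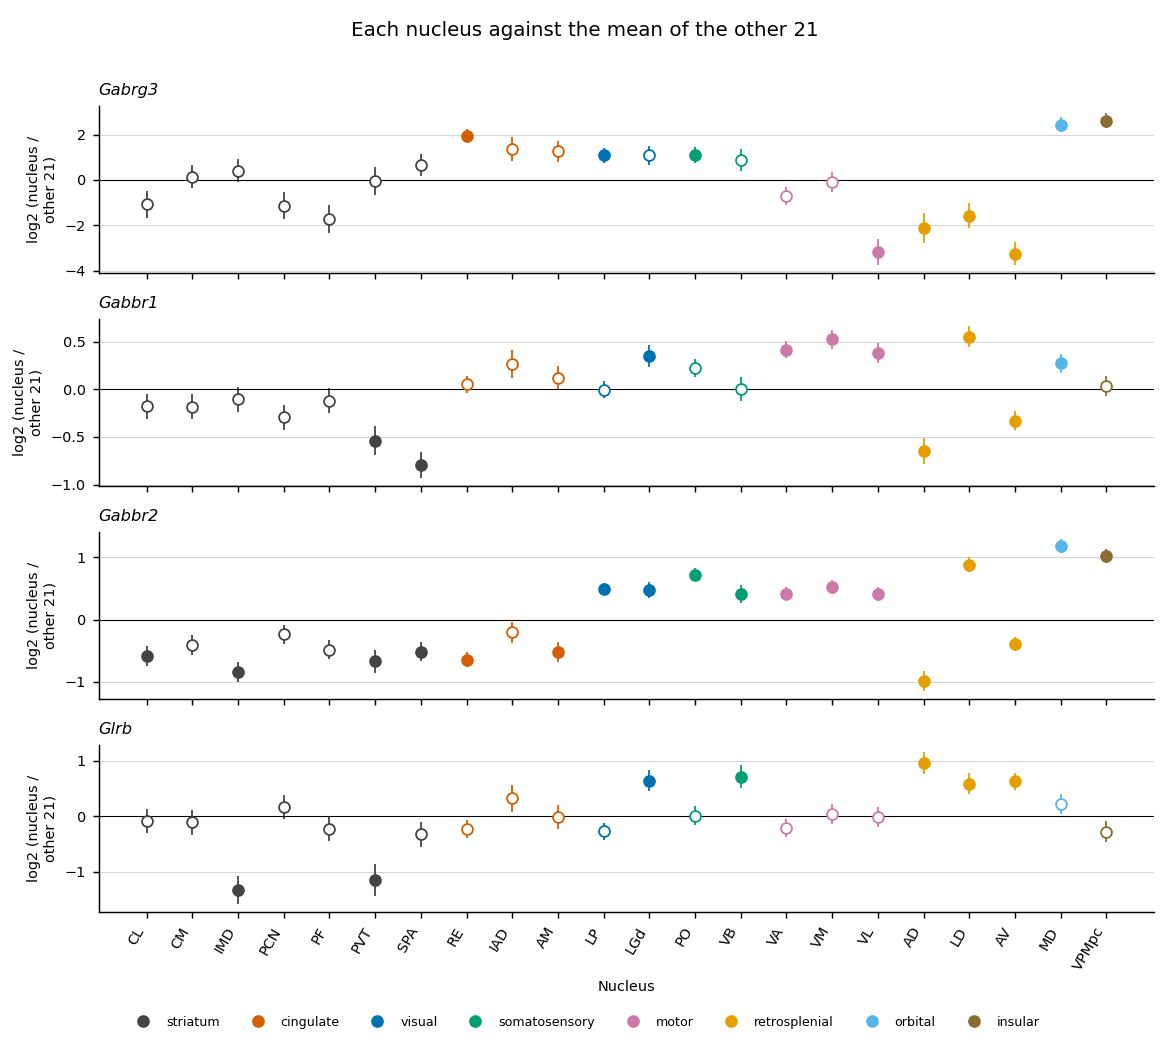
Log2 ratio of each nucleus to the mean of the other 21 for the 4 genes with reads in every nucleus; points are the fitted values with bars of 1 SE, filled where the adjusted p was under 0.05, coloured by projection target. Gabrg3 falls to -3.26 in AV and -3.19 in VL, and Gabbr2 splits the nuclei into 10 called higher and 8 called lower.

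Nuclei marked from the same cortical area with the same dye allow closer comparisons, and 11 such pairs were tested as contrasts of the fit over all libraries. The pairs share nuclei, so their values are not independent. Gabrg1 was called in 7 of the 11 pairs and Glra3 in 6. Gabbr2 was called in 3 pairs, Gabrg3 and Gabbr1 in 2 each, and Glrb in 1. Over the 11 pairs the share of all genes called ran from 0% (IAD against AM) to 6.73% (AD against LD). By edgeR's newer quasi-likelihood method the Gabrg1 calls of VM against VL, AD against AV and LD against AV were lost. Without IAD replicate 2 that of RE against IAD was lost. The Glra3 calls of VM against VL and VA against VM rest on VM replicates 4 and 5.

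Among neurons marked from visual cortex, LP, a higher-order nucleus, expressed Gabrg1 and Glra3, and LGd, the primary visual relay, nearly lacked both. Gabrg1 lay between 20.0 and 105 CPM in the 9 LP libraries (median 38.0 CPM), against 0, 0.0848, 0.243, 0 and 0 CPM in the 5 LGd libraries, a log2 difference of 9.33 ± 1.15 (SE, edgeR adjusted p = 9.13e-10). Glra3 lay between 26.4 and 87.6 CPM in LP (median 57.4 CPM), against 0.0852, 0.0848, 0.162, 0.115 and 0.930 CPM in LGd, a difference of 7.63 ± 1.31 (edgeR adjusted p = 1.26e-05). Neither gene's ranges overlapped, and 3 of the 6 genes were called in a pair in which 3.62% of all genes were. The size of these low-end ratios rests on few LGd reads: without LGd replicate 3 the log2 difference of Gabrg1 was 10.71, and without LGd replicate 5 that of Glra3 was 8.95. Glrb was lower in LP, at 126 to 308 CPM (median 206 CPM) against 608, 285, 463, 417 and 268 CPM in LGd, by -0.87 ± 0.24 (edgeR adjusted p = 0.0152), with overlap. The Glrb call was lost without LGd replicate 1 or replicate 3, with adjusted p-values up to 0.148. Gabbr1 was at 711 to 1032 CPM in LP (median 923 CPM) and 1081 to 1195 CPM in LGd (1081, 1147, 1106, 1195 and 1180 CPM), without overlap, but the difference of -0.34 ± 0.14 missed the threshold (adjusted p = 0.185). Gabrg3 averaged 186 ± 86.7 CPM in LP and 187 ± 35.4 CPM in LGd and Gabbr2 1861 ± 354 CPM in LP and 1833 ± 169.9 CPM in LGd (SD, n = 9 and 5). With the date as a term the same 3 genes were called, in a fit that called 638 of 12856 genes. The 8 oligodendrocyte markers summed to 6.12 to 899 CPM in LP and 9.70 to 161 CPM in LGd, and their part in these results was not tested.

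In the barrel cortex pair, made of other libraries, Gabrg1 and Glra3 differed in the same direction. Gabrg1 was at 4.04 to 32.0 CPM in the 7 PO libraries (median 8.92 CPM), PO being a higher-order somatosensory nucleus, and had no read in the 4 libraries of VB, the primary somatosensory relay. It was at least 239-fold higher in PO, against a floor of 3 counts over the VB group (edgeR adjusted p = 3.76e-07). Glra3 was at 11.9 to 41.3 CPM in PO (median 18.4 CPM) and had no read in VB, at least 392-fold higher in PO (edgeR adjusted p = 1.16e-05). These 2 genes were the members called, and 2.65% of all genes were called in the pair. Glrb was at 200.4 to 353 CPM in PO (median 275 CPM) and 474, 435, 470.2 and 335 CPM in VB, with overlap of 1 VB library, and its difference of -0.67 ± 0.27 missed the threshold (adjusted p = 0.177). Gabrg3, Gabbr1 and Gabbr2 overlapped between PO and VB, with adjusted p-values of 0.957, 0.613 and 0.477. With the date as a term Gabrg1 and Glra3 were still called (edgeR adjusted p = 0.00512 and 5.81e-04). That fit called 130 of 12795 genes. The oligodendrocyte markers summed to 3.10 to 230.4 CPM in PO and 73.2 to 1854 CPM in VB, and their part in these results was not tested.

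Among the 3 motor nuclei both gamma genes were lowest in VL. Gabrg3 was at 47.9 to 160.4 CPM in the 6 VM libraries (median 67.4 CPM) and 1.25 to 26 CPM in the 6 VL libraries (median 6.72 CPM), without overlap, a log2 difference of 2.94 ± 0.64 (SE, edgeR adjusted p = 0.00229). Against VL, VA also had more Gabrg3, with 21.3 to 84.0 CPM over 8 libraries (median 55.3 CPM) and a difference of 2.37 ± 0.61 (edgeR adjusted p = 0.0139), with overlap. That call was lost without VL replicate 2 or replicate 6, with adjusted p-values up to 0.0556. Gabrg1 was at 0.931 to 6.59 CPM in VM (median 2.55 CPM) and 0 to 0.897 CPM in VL (median 0 CPM), a difference of 3.90 ± 0.82 (edgeR adjusted p = 0.00146) without overlap. It was 5.62 without VL replicate 2, and the adjusted p was 0.327 by edgeR's newer quasi-likelihood method, 0.149 with the 2 groups fitted alone and 0.137 with the date as a term. VM against VL called 3 of the 6 genes with 1.69% of all genes called, VA against VL 1 of 6 with 2.21%, and VA against VM 1 of 6 with 0.127%. The oligodendrocyte markers summed to 11.6 to 3912 CPM in VA, 3.97 to 515 CPM in VM and 3.99 to 226 CPM in VL. Slc4a4 was at 2.38 to 155 CPM in VA, 38.6 to 110 CPM in VM and 58.2 to 94.8 CPM in VL. The part of these markers in the results was not tested.

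The libraries of VM themselves split over Glra3. Glra3 was at 0 to 0.0655 CPM in VA (median 0 CPM), at 0, 0.145, 0.888, 1.06, 28.6 and 29.5 CPM in VM, and at 0 to 0.407 CPM in VL (median 0 CPM). The difference of VM from VL was 6.98 ± 1.22 (log2, SE, edgeR adjusted p = 3.89e-05), and that of VA from VM -8.45 ± 1.17 (edgeR adjusted p = 1.27e-06), with overlap in both. VA held 3 Glra3 reads in all, and the ratio of VM to VA was 452 with a 95% counting interval of 154 to 2196. Both differences rest on VM replicates 4 and 5. Without replicate 4 they were 6.31 and -7.78, without replicate 5 they were 6.29 and -7.77, and without VL replicate 3 that of VM from VL was 9.05. The 3 male VM libraries were at 1.06 to 29.5 CPM and the 3 female ones at 0 to 0.888 CPM, and the 4 VM libraries of one amplification date were at 0.888 to 29.5 CPM and the 2 of the other at 0 to 0.145 CPM, so sex and date moved with the level, and their part was not tested. With VM and VL, or VA and VM, fitted alone the filter on low counts removed Glra3, so those fits give it no value, also with a replicate block or the date as a term.

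The retrosplenial nuclei differed in their GABA-B genes. Gabbr2 was at 721, 686, 738 and 649 CPM in AD, at 2185, 2749, 3160, 1956 and 1952 CPM in LD and at 827 to 1444 CPM in the 8 AV libraries (median 1013 CPM), with no overlap between any of the 3. LD differed from AV by 1.21 ± 0.16 (log2, SE, edgeR adjusted p = 8.73e-09), AD from LD by -1.78 ± 0.20 (edgeR adjusted p = 1.19e-11) and AD from AV by -0.57 ± 0.18 (edgeR adjusted p = 0.0415). The difference of AD from AV lost its call in 7 of 12 fits without 1 library (adjusted p up to 0.125, namely without any of the 4 AD libraries or AV replicates 1, 4 or 5) and with the 2 groups fitted alone (0.109), with the date as a term (0.0676), with a replicate block (0.301) and in the 3 animals that gave both (0.471). Of all genes, the 2 groups fitted alone called 475 of 12767 and the fit with the date 430 of 12767. The replicate block called 248 of 11788 and the same-animal fit 362 of 12072. Gabbr1 was at 420.0, 538, 530.4 and 870.1 CPM in AD, at 1405, 832, 1556, 1388 and 1348 CPM in LD and at 531 to 933 CPM in AV (median 727 CPM). AD was below LD by -1.15 ± 0.17 (edgeR adjusted p = 2.07e-07) and LD above AV by 0.84 ± 0.14 (edgeR adjusted p = 6.34e-06), both with overlap through LD replicate 2. With the date as a term the differences of LD from AV kept their size but not their calls, at 0.81 for Gabbr1 (edgeR adjusted p = 0.731) and 1.08 for Gabbr2 (0.0930). That fit called 46 of 12377 genes, against 909 of 16527 in the fit over all libraries. In the 3 animals that gave both LD and AV the edgeR adjusted p was 0.128 for Gabbr1 and 0.0359 for Gabbr2, in a fit that called 140 of 12138 genes. AD and LD share no date, so date and nucleus cannot be told apart between them. Slc4a4, the 1 astrocyte marker of 8 in the table, was at 33.9 to 64.3 CPM in AD, 78.2 to 214 CPM in LD and 201 to 435 CPM in AV, with AD apart from both, and its part in these results was not tested.

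Gabrg1 was also called between the retrosplenial nuclei, at low levels. It was at 0, 3.94, 1.65 and 3.65 CPM in AD and 0.431, 3.75, 0.171, 10.5 and 0 CPM in LD, against 0 to 0.169 CPM in AV (median 0 CPM), where 3 reads came from replicate 2 alone. The ratio of counts was 86.0 for AD over AV (95% counting interval 28.7 to 423) and 111 for LD over AV (37.4 to 543), with overlap in both pairs. The fitted log2 differences were 6.04 ± 0.98 for AD and AV (SE, edgeR adjusted p = 1.95e-06) and 6.41 ± 0.96 for LD and AV (2.74e-07). Without AV replicate 2 they were 8.23 and 8.60, and without LD replicate 4 that of LD was 4.90. By the newer quasi-likelihood method the adjusted p was 0.357 for AD and 0.188 for LD. With AD and AV or LD and AV fitted alone, with the date, a replicate block or same-animal pairs too, the filter on low counts removed Gabrg1, so neither call has a value there. Glra3 and Glrb were not called in any of the 3 pairs. AD against AV called 2 of the 6 genes with 5.69% of all genes called, LD against AV 3 of 6 with 5.5%, and AD against LD 2 of 6 with 6.73%.

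Among the cingulate nuclei RE stood apart in Gabrg1 and Glra3. Gabrg1 was at 140.1 to 235 CPM in the 8 RE libraries, against 8.63, 4.65 and 9.70 CPM in IAD and 7.92, 9.59, 0.393 and 4.88 CPM in AM, without overlap. RE differed by 5.15 ± 0.97 from AM (log2, SE, edgeR adjusted p = 1.58e-04) and by 4.72 ± 1.08 from IAD (edgeR adjusted p = 0.00424, and 0.0859 without IAD replicate 2). Glra3 was at 26.5 to 144 CPM in RE, had no read in IAD and was at 0.189, 0.0600, 0.197 and 0.0498 CPM in AM. The difference of RE from AM was 8.90 ± 1.55 (edgeR adjusted p = 3.15e-05), and RE was at least 976-fold above the floor of IAD (edgeR adjusted p = 2.45e-05). Gabrg3 was at 247 to 436 CPM in RE and 227, 164, 208 and 233 CPM in AM, without overlap, yet its difference of 0.66 ± 0.65 missed the threshold (adjusted p = 0.934), while the adjusted p was 0.0224 with the 2 groups fitted alone and 0.122 with the animal as a block. Gabbr1, Gabbr2 and Glrb overlapped between RE and both others, and none was called. RE against AM called 2 of the 6 genes with 1.84% of all genes called, and RE against IAD 2 of 6 with 1.33%. RE and IAD share no date, so date and nucleus cannot be told apart between them. The 4 same-numbered libraries of RE and AM came from the same animals, and with the animal as a block Gabrg1 (5.66, edgeR adjusted p = 7.02e-04) and Glra3 (9.38, 1.54e-05) were called again. That fit called 288 of 12932 genes. Slc4a4 was at 3.49 to 39.5 CPM in RE, 158 to 163 CPM in IAD and 84.8 to 146 CPM in AM, with no overlap, and its part in these results was not tested.

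IAD and AM did not differ in any of the 6 genes at the threshold, and 0% of all genes were called by edgeR, with 5 by its newer method, 261 by DESeq2 and 504 at an unadjusted p under 0.05. Of the 6 genes only Glra3 was under that level. It had no read in IAD and 9 reads in AM and was at least 2.02-fold lower in IAD. IAD and AM also share no date, so date and nucleus cannot be told apart between them.

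**Figure D5:**
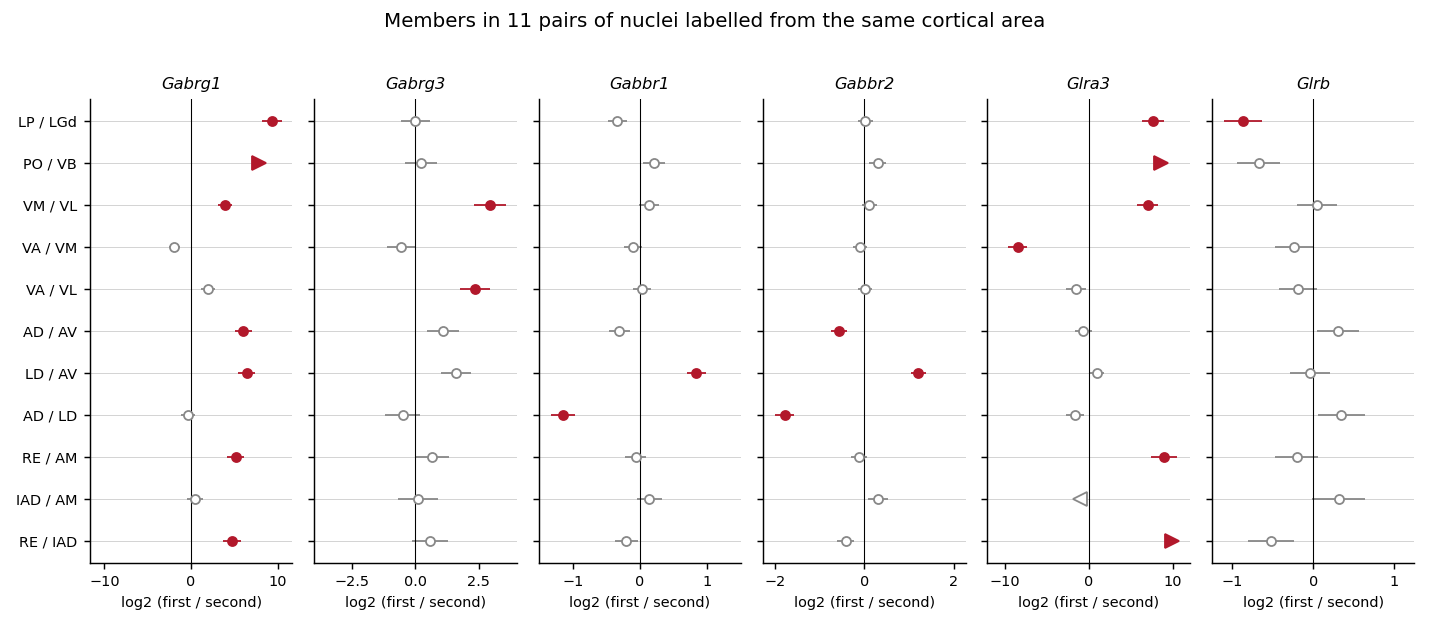
Fitted log2 difference of the first to the second nucleus for each of the 6 genes in 11 pairs of nuclei marked from the same cortical area; bars are 1 SE, triangles are lower bounds where 1 nucleus had no read, and filled symbols have an adjusted p under 0.05. Gabrg1 and Glra3 reach the largest differences. Those of Gabrg1 from VB and AV, and of Glra3 from VB and IAD and between VA and VM, rest on 0 to 3 reads in the low nucleus.

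CM was marked from the striatum with both tracers. No gene of the 6 was called between its DiI and its AAV libraries, in a comparison that called 0.00605% of all genes. Glra3 and Gabbr1 had an unadjusted edgeR p under 0.05 (0.00763 and 0.0156). In all, 1073 of 16527 genes were under that level. Glra3 was at 0, 0.256 and 1.40 CPM in the 3 DiI libraries and 10.7, 9.53, 2.71 and 8.82 CPM in the 4 AAV libraries, without overlap, a log2 difference of -3.83 ± 1.41 (SE) that missed the threshold with edgeR (adjusted p = 0.739) and passed it with DESeq2 (0.0382). The DiI libraries were male and the AAV libraries of both sexes, and the groups share no date. In AM the single AAV library had 3.83 CPM of Glra3 and 379.5 CPM of Gabrg3, above the 4 DiI libraries at 0.0498 to 0.197 and 164 to 233 CPM. It was also above them in Gabbr2 (1526 CPM, against 807 to 1193 CPM) and Glrb (330.4 CPM, against 233 to 295 CPM), and below them in Gabbr1 (658 CPM, against 870.4 to 1060.1 CPM) and Gabrg1 (0.356 CPM, against 0.393 to 9.59 CPM). In CM, Gabbr1 averaged 576 ± 95.3 CPM in the DiI and 802 ± 188 CPM in the AAV libraries, and Gabbr2 1083 ± 273 CPM in the DiI and 1025 ± 220 CPM in the AAV libraries (SD, n = 3 and 4), with overlap in both. In both nuclei with both tracers, the AAV libraries thus had the higher Glra3 values, and the part of the tracer in the levels of the AAV-marked striatal nuclei was not tested.

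The 7 striatum-projecting nuclei had less of both GABA-B genes than the 15 cortex-projecting ones. Gabbr1 averaged 744 ± 117 CPM over the 7 striatal nuclei (535 to 845 CPM) and 1019 ± 196 CPM over the 15 cortical ones (SD, 589.8 to 1306 CPM), a log2 difference of -0.41 ± 0.14 (SE, edgeR on counts summed per nucleus, adjusted p = 0.0383). Gabbr2 averaged 949 ± 121 CPM over the striatal nuclei (768 to 1148 CPM) and 1716 ± 662 CPM over the cortical ones (698 to 2927 CPM), a difference of -0.77 ± 0.21 (edgeR adjusted p = 0.0139). Both overlapped, 2 of the 6 genes were called, and 18.4% of all genes were. Gabbr1 lost its call without CL, CM, PCN, PVT or SPA. Glrb, at 212 ± 69.2 CPM in striatal and 317 ± 89.0 CPM in cortical nuclei, missed the threshold (-0.54 ± 0.20, adjusted p = 0.0556) and passed it with DESeq2 (0.0302). Gabrg1, Gabrg3 and Glra3 were not called, with adjusted p-values of 0.685, 0.223 and 0.777. The striatal nuclei were marked with AAV and the cortical ones with DiI, so tracer and target cannot be told apart here. Slc4a4 was at 0 to 18.6 CPM in the striatal and 2.38 to 435 CPM in the cortical libraries, and its part was not tested. On the dates that hold both classes, with the date as a block, Gabbr1 (-0.92, edgeR adjusted p = 0.00506) and Gabbr2 (-0.86, 0.00176) were called again. Gabrg1 was called higher in striatal nuclei in that fit (5.15, edgeR adjusted p = 0.0237). The fit held 8 columns of counts and called 874 of 14677 genes. Over all 22 nuclei Gabrg1 was not called, and its highest mean was in RE, a cortex-projecting nucleus.

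Lists of other genes of inhibitory transmission are read here against the 55.1% of all genes that differed over the 22 nuclei. Of the GABA-A subunit genes besides the 2 described, all 12 measured of 17 listed differed over the 22 nuclei, with a median F of 11.1 against 1.97 over all genes. They included Gabra4 (F = 22.0) and Gabrb2 (19.2), with Gabra4 at 889 ± 300 CPM in LD (SD, n = 5) and 240 ± 22.8 CPM in IMD (n = 4). Of the genes for GABA-B effectors 16 of 18 differed, led by Rgs7bp (F = 18.4), a partner of RGS proteins, and Kcnj3 (14.4), a potassium channel that GABA-B receptors open. All 9 measured of 11 GABA-B auxiliary genes differed, led by Aplp2 (F = 11.9) and Kctd8 (6.93). So did both measured glycine alpha genes besides Glra3, namely Glra2 (3.76) and Glra1 (3.53). Of the scaffold genes 10 of 15 measured differed, led by Iqsec3 (F = 11.9) and Slitrk3 (8.79), and of the chloride and transmitter transport genes 6 of 10 measured, among them Slc12a5 (F = 5.05), the neuronal chloride exporter. The counts of these last 2 lists lie near the share of all genes.

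In LP against LGd, GABA-A subunit genes were called in both directions, 6 higher and 3 lower of 12, with a median log2 difference of 0.69 against 0.10 over all genes. Of all genes 2.23% were called higher and 1.39% lower in this pair. Gabrb2 averaged 461 ± 71.1 CPM in LP and 774 ± 96.1 CPM in LGd (SD, n = 9 and 5; log2 difference -0.75 ± 0.18 SE, edgeR adjusted p = 0.00346), while Gabra3, chosen after its values were seen, averaged 171 ± 62.3 CPM in LP and 2.69 ± 3.33 CPM in LGd (5.99 ± 0.71, edgeR adjusted p = 1.75e-10). In PO against VB 2 were higher (Gabra3 and Gabrq, chosen after their values were seen) and 2 lower, among them Gabrb2, against 1.6% of all genes higher and 1.05% lower. Gabrb2 was at 531 ± 66.1 CPM in PO and 854 ± 257 CPM in VB (SD, n = 7 and 4; -0.69 ± 0.20, edgeR adjusted p = 0.0366). In RE against AM 1 was higher and 3 lower (Gabra4, Gabrb2 and Gabrd), against 0.611% of all genes higher and 1.23% lower, with Gabra4 at 253 CPM in RE and 592 CPM in AM (-1.23 ± 0.18, edgeR adjusted p = 2.21e-07).

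Several genes for GABA-B effectors were lower in AD too. In AD against LD 7 of 18 were lower and 0 higher, with a median log2 difference of -0.69 against 0 over all genes, of which 4.16% were called lower and 2.57% higher. In AD against AV 5 were lower and 1 higher (median -0.23, against -0.08), with 2.9% of all genes lower and 2.79% higher. Rgs7, a G-protein regulator, averaged 93.4 ± 37.3 CPM in AD, 410 ± 105 CPM in LD and 388 ± 66.9 CPM in AV (SD, n = 4, 5 and 8; AD from LD -2.13 ± 0.25 SE, edgeR adjusted p = 2.02e-11). Kcnj3 averaged 216 ± 75.2 CPM in AD, 584 ± 208 CPM in LD and 412 ± 112 CPM in AV (AD from LD -1.43 ± 0.31, edgeR adjusted p = 6.34e-04). In LD against AV 4 effector genes were higher and 0 lower (Kcnj9, Gnao1, Kcnj5 and Gng3, chosen after their values were seen), with 3.58% of all genes higher and 1.92% lower. Between striatal and cortical nuclei 1 effector gene was higher and 4 were lower of 18, with a median of 0.11 against -0.08 over all genes, so the median and most of the calls differ in sign, and 8.58% of all genes were called higher and 9.8% lower. Among the lower ones were Kcnj3 at 131 CPM in striatal and 379 CPM in cortical nuclei (-1.46 ± 0.19, edgeR adjusted p = 4.38e-05) and Rgs7bp at 427 and 1089 CPM (-1.27 ± 0.22, 4.26e-04). Of the glycine alpha genes Glra1 was higher in striatal nuclei, at 74.2 ± 24.4 CPM against 29.8 ± 19.2 CPM in cortical nuclei (SD over 7 and 15 nuclei; 1.40 ± 0.34 SE, edgeR adjusted p = 0.00632). In AD against LD both measured alpha genes besides Glra3 were higher, the opposite direction to the GABA-B genes. Glra2 was at 57.5 ± 22.1 CPM in AD and 7.82 ± 9.35 CPM in LD (2.89 ± 0.75, edgeR adjusted p = 0.00659). Glra3, not called in this pair, averaged 3.63 CPM in AD and 11.2 CPM in LD.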

How the data were processed

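RNA of hand-picked, tracer-marked neurons of 22 thalamic nuclei was sequenced in 120 libraries with an unstranded kit. The authors deposited raw read counts per gene, and the submitters' processing notes name cutadapt 1.16, STAR 2.5.3a, featureCounts 1.52 and the mm10 build. Sample attributes such as tracer, date and sex come from the table of libraries that the authors deposited. Counts were tested with edgeR 4.0.16 (R 4.3.3): quasi-likelihood F tests in its legacy form, TMM factors, a filter of 10 counts in a library and 15 in total, and Benjamini-Hochberg adjustment over all genes tested with a threshold of 0.05. All 120 libraries entered 1 fit with a coefficient per group. Striatum against cortex used counts summed per nucleus. CPM values use TMM-scaled totals, and log2 means for likeness use a prior count of 2.

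On simulated counts with 200 genes changed by a log2 difference of 2, LP against LGd found 133 with 8 false calls, the 22-nuclei test found 151 with 386 false calls and striatum against cortex found 198 with 8 false calls. Of the 386, 365 were genes under 1 CPM. The limit on false calls was first set over all genes, which the 22-nuclei test failed, and was then applied to genes of at least 1 CPM, a choice made after seeing that failure.

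Alternatives were RLE factors, no filter, DESeq2 1.42.0, the newer quasi-likelihood method and the same-animal pairs (these last 2 chosen after seeing the data), date, sex and tracer subsets, the compared groups alone, and leaving out each library. Same-numbered libraries came from the same animals in all shared numbers for RE and AM alone. The 6 genes and all lists were chosen with earlier results of these data known. Besides the 6, the genes named are up to 4 called genes per list with the largest F, those that a subunit share needs, and the 3 most alike to each in likeness. Some genes that this rule names, and results that need them, are not reported here. Promoter sequences are from RefSeq (GRCm38.p6). Totals per library ran from 8159497 to 26444831 counts.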

Additional observations from a re-analysis of the deposited data

Results flagged for a closer look

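In 12 of 118 sets of libraries (a gene in a group of 4 to 10 libraries) 1 library stood far from the others. The rule used flags about 5% of sets by chance if values are normally distributed. CPM values of genes near 0 are not, so the number of flags cannot be compared with that rate. For Gabrg1, PCN replicate 4 was at 97.8 CPM with the others at 13.6 to 24.4 CPM, VA replicate 7 at 3.31 CPM with the others at 0 to 1.11 CPM, VL replicate 2 at 0.897 CPM with the others at 0 to 0.251 CPM, and AV replicate 2 at 0.169 CPM with the others at 0. For Gabrg3, AD replicate 1 was at 70.6 CPM with the others at 0.995 to 10.4 CPM, and AV replicate 5 at 57.6 CPM with the others at 0.248 to 9.51 CPM. For Glra3, MD replicate 5 was at 22.2 CPM with the others at 0.117 to 2.15 CPM, LGd replicate 5 at 0.930 CPM with the others at 0.0848 to 0.162 CPM, and VL replicate 3 at 0.407 CPM with the others at 0 to 0.0590 CPM. PF replicate 2 was the lowest of its group, at 5.07 CPM with the others at 19.3 to 22.0 CPM. For the GABA-B genes, LD replicate 2 was low in Gabbr1 at 832 CPM with the others at 1348 to 1556 CPM, and VPMpc replicate 2 was high in Gabbr2 at 4212 CPM with the others at 2047 to 2674 CPM.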

How the results depend on the processing

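Of 280 values of 41 single-gene results under alternatives other than leaving out libraries, 253 kept their direction and their side of the threshold, 18 lost and 9 gained a call, and 0 changed sign. Counts of the 6 genes called moved by over 1.5 times as follows. VM against VL called 1 (against 3) and VA against VM 0 (against 1) with the compared groups alone, also with a replicate block or the date as a term, where the low-count filter removed Glra3. Of all genes those fits called 343, 329 and 243 of 12129 in VM against VL. In VA against VM they called 0 of 12279, 0 of 11819 and 0 of 12279. VA against VL called 0 (against 1) with the replicate block, in a fit that called 167 of 11790 genes. AD against AV called 1 (against 2) by the newer quasi-likelihood method and 0 with the groups alone, with the replicate block, with the date and in same-animal pairs. Of all genes these fits called 954 of 16527, 475 of 12767, 248 of 11788, 430 of 12767 and 362 of 12072, in this order. LD against AV called 0 (against 3) with the replicate block or the date and 1 in same-animal pairs. Of all genes these fits called 128 of 11546, 46 of 12377 and 140 of 12138. CM DiI against CM AAV called 1 (against 0) with DESeq2, and striatum against cortex 1 (against 2) without CL, CM, PVT or SPA. They moved by less in VM against VL (2 by the newer method and in same-animal pairs), LD against AV (2 by the newer method and with the groups alone), RE against AM (3 against 2 with the groups alone, also with the date), RE against IAD (3 against 2 with the replicate block and in same-animal pairs) and striatum against cortex (3 by the newer method, with DESeq2 and on shared dates). Leaving out 1 library gave 1 to 2 calls for AD against AV, 0 to 1 for VA against VL, 1 to 2 for RE against IAD, 2 to 3 for LP against LGd and 3 to 4 for LD against AV. Gabrg3 in AD against AV, not called, was 1.10 and ran from -0.71 (without AD replicate 1) to 2.57 (without AV replicate 5, then called) over fits without 1 library. Gabrg3 in LD against AV, at 1.61 and not called, ran from 0.42 to 3.08 and was called in 3 of 13 such fits (without AV replicate 5 or LD replicates 1 or 2). Gabrg1 in VA against VL, at 1.97 and not called, ran from 1.12 to 3.69 and was called without VL replicate 2, and Gabbr1 in AD against AV was called without AD replicate 4 (-0.56). For RE and AM, whose shared numbers are shared animals, the replicate block left 2 calls, and in the other pairs numbers do not pair animals throughout (correlations of same-numbered deviations -0.0819 to 0.0748 over all pairs). Counts of all genes called differed by over 1.5 times by both DESeq2 and the newer quasi-likelihood method in VM against VL (280 genes, 694 with DESeq2, 522 with the newer method), VA against VM (21 genes, 350 with DESeq2, 119 with the newer method), VA against VL (365 genes, 843 with DESeq2, 627 with the newer method), RE against AM (304 genes, 553 with DESeq2, 617 with the newer method), IAD against AM (0 genes, 261 with DESeq2, 5 with the newer method), RE against IAD (219 genes, 561 with DESeq2, 438 with the newer method) and CM DiI against CM AAV (1 gene, 476 with DESeq2, 9 with the newer method). With DESeq2 but not the newer method they did in LP against LGd (599 and 1171 with DESeq2), PO against VB (438 and 1209 with DESeq2), AD against AV (940 and 1813 with DESeq2), LD against AV (909 and 1762 with DESeq2) and AD against LD (1112 and 2235 with DESeq2). Depth limits the genes near 0: ratios of Gabrg1 against AV, LGd, VB or VL, and of Glra3 against LGd, VA, VB, VL, IAD or AM, rest on 0 to 23 reads in that nucleus.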
